A study of Mus musculus with 18 samples.

Results

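Start-site peaks are the stretches of accessible chromatin that lay at the beginnings of genes in mouse small cell lung cancer (SCLC), and each was set beside the RNA of its gene. Of 111664 ATAC-seq peaks, 15784 (14.1%) had their middle within 1000 bp of a gene start on chromosomes 1 to 19 of the GRCm38 Ensembl annotation. They lay at 18435 gene starts, and 16801 of the 46078 genes of the RNA-seq table were paired with the peak nearest to their start, 14184 distinct peaks in all. ATAC-seq counts insertions of the transposase Tn5, which reaches DNA that nucleosomes leave free.

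The tumors came from TKO mice, in which floxed Rb1, Rbl1 and p53 alleles, as the labels spell them, were deleted in lung cells by adenoviral Cre. Mice received the adenovirus when 8 weeks old, and 28 weeks later cancer cells were taken from 3 animals per genotype. The genotypes were TKO, TKO;Carm1 (the same 3 floxed genes with floxed Carm1, the gene of the arginine methyltransferase CARM1) and TKO;NfibR388K (a germline knock-in in the gene of the transcription factor NFIB, with lysine in place of the arginine that CARM1 methylates). All groups therefore carried the TKO deletions, the Cre came from a virus that can enter several lung cell types, and no tumor was compared with normal lung. The paper names Rbl2 as the floxed gene in its results, a figure legend and its methods on Cre delivery. It names Rbl1 only in its methods on animal models, so the labels differ from most of the paper here. The methods describe sorting by a tdTomato reporter that Cre switches on, but the labels do not say whether cells were cultured before lysis.

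Accessible start sites let RNA polymerase II and the general transcription factors assemble. In mammals most housekeeping genes start in CpG islands, stretches rich in unmethylated CpG that tend to lack stable nucleosomes, and many tissue-specific genes start in CpG-poor DNA that opens when activators bind. Accessibility is needed for initiation but does not measure it, since polymerase recruitment, pause release and RNA stability act later.

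The 250 bases before the gene start are shown for 5 genes that mark the range of relations described below, 5′ to 3′ on the strand of the gene in GRCm38, with each CG in capitals. Vgll3 (chr16:65815007-65815256, plus strand, 17 CpG) and Grip2 (chr6:91827251-91827500, minus strand, 5 CpG) kept their peak while their RNA was almost absent in some genotypes. Ctnna3 (chr10:63429848-63430097, plus strand, 36 CpG) had an open peak and next to no RNA in every library. Nefl (chr14:68083613-68083862, plus strand, 19 CpG) and Col3a1 (chr1:45311288-45311537, plus strand, 0 CpG) lost or gained the peak together with the RNA.
Vgll3: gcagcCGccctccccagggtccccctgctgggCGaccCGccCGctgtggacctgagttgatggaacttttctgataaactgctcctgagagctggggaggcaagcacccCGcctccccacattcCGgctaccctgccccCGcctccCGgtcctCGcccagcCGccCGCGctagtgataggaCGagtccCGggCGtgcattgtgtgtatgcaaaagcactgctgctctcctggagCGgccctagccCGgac
Grip2: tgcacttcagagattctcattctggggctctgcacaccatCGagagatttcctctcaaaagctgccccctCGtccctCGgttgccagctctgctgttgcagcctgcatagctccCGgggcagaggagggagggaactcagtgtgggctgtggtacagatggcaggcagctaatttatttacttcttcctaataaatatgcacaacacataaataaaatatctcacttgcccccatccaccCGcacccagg
Ctnna3: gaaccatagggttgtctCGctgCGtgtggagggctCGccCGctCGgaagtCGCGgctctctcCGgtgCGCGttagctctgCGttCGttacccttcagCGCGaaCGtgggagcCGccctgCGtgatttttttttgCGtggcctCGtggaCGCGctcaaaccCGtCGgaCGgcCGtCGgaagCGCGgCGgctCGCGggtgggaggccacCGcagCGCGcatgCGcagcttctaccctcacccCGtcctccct
Nefl: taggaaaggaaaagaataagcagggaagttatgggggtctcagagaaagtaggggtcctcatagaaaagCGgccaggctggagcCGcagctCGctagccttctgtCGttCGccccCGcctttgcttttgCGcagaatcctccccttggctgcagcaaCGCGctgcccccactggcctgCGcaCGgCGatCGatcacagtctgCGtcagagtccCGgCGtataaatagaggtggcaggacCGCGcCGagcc
Col3a1: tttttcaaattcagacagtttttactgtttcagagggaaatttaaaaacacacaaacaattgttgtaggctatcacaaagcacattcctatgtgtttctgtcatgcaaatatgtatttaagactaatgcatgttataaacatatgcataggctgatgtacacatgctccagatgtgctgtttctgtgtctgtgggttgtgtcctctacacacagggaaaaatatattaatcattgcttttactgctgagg
The CpG count alone did not separate Vgll3, whose peak stayed open, from Nefl, whose peak fell, with 17 and 19 CpG. Over the silent paired genes as a set, starts rich in CpG were open more often than others, as described below.

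Start-site peaks were longer and richer in GC than the other peaks, with a median length of 1642 against 717 bp and a median GC content of 54.6 against 48.1%. The middle of the peak lay a median of 260 bp from the gene start and in 66.9% of genes downstream of it. A start was called CpG-rich where the 300 bases from 250 before to 50 after it had at least 50% GC and an observed over expected CpG ratio of at least 0.6. This held for 9528 paired genes (56.7%) against 25.9% of all genes of the table on these chromosomes. Of CpG-rich starts 89.7% had a start-site peak, and of the others 24.0%. A single gene start lay at 12829 of the peaks and 2 at 2755, so that 1 peak often stood for a pair of genes. Of 1202 such pairs tested in both assays, 703 were read in opposite directions.

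Libraries held 15848866 to 20915057 RNA counts in genes and 26917178 to 47653979 ATAC counts in peaks. Levels are given as CPM, that is counts scaled to a library of 1000000, divided for peaks by the peak length in kb, and scaled with the trimmed mean of M values (TMM). A gene was called silent at 3 counts or fewer in every library named (0.143 to 0.189 CPM) and expressed at 5 CPM or more, and a peak was called open at 5 CPM per kb or more and closed under 1 CPM per kb in every library named. Such floors cover counting error only, since PCR copies of a molecule are not independent. Each SD, standard error and p-value measures the spread between 3 animals per genotype. TKO;Carm1 3 stood apart from the other mutant libraries in neuroendocrine RNA, with 2009 CPM over the 15 neuroendocrine markers against 59.4 and 189 CPM in TKO;Carm1 1 and 2, 34.2 to 51.7 CPM in TKO;NfibR388K and 2023 to 4609 CPM in TKO. Of the 2009 CPM, 833 came from Calca, the calcitonin gene, which had 5.14 to 21.96 CPM in TKO, while Scg3 had 71.8 CPM against 168 to 178 in TKO and Neurod1 had 0. Fewer cells of a type and less RNA per cell cannot be told apart in such bulk samples.

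Within each genotype, start-site accessibility rose with expression at low levels of RNA and then reached a plateau. In TKO the median start-site peak had 4.30 CPM per kb at silent genes, 8.28 at genes of 0.3 to 1 CPM per kb of exon, 15.2 at 3 to 10 and 17.5 at 100 and over. In TKO;Carm1 the medians at the same steps were 3.93, 6.42, 11.5 and 11.8 CPM per kb. In TKO;NfibR388K they were 3.48, 6.83, 11.1 and 11.4 CPM per kb. The share of paired genes with an open peak rose in the same way. In TKO it went from 34.1% of silent genes to 90.8% of genes at 3 to 10 CPM per kb and 96.3% at 30 to 100. The 2 mutants went from 34.4 and 31.7% to 87.5 and 86.8% and then to 93.4 and 92.5%.

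**Figure D1:**
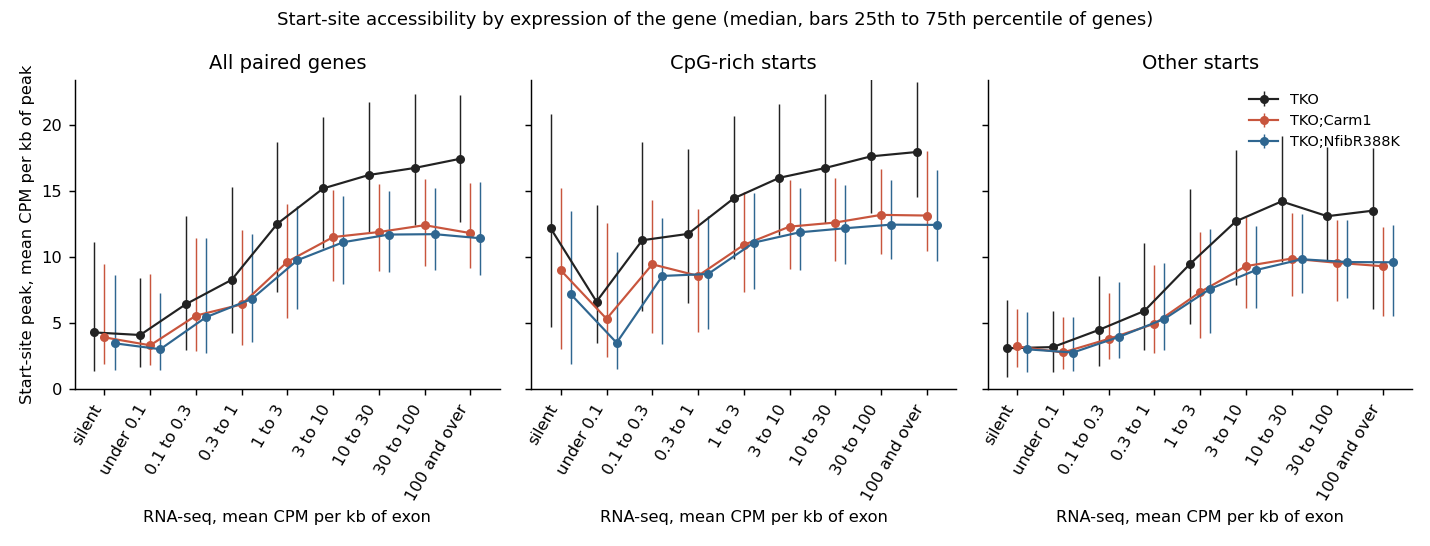
Median start-site accessibility (CPM per kb of peak, bars from the 25th to the 75th percentile of genes) by expression class of the gene (CPM per kb of exon) for TKO, TKO;Carm1 and TKO;NfibR388K, over all paired genes, CpG-rich starts and other starts. Over all paired genes, the medians are slightly lower in the class under 0.1 CPM per kb than at silent genes (4.11 against 4.30 in TKO). From there they climb to the class of 3 to 10 CPM per kb (15.2 in TKO) and change little above it (17.5 at 100 and over).

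Across the 16801 pairs, Spearman's rank correlation between the mean level of the peak and the mean level of the RNA was 0.48 in TKO, 0.44 in TKO;Carm1 and 0.47 in TKO;NfibR388K. These values describe genes of the same libraries, which are not replicates. With 1 gene start at the peak, so that no second gene shared it, the rank correlation was 0.60, 0.56 and 0.59. Over genes of at least 3 CPM per kb of exon (7996, 7910 and 7842 genes) the rank correlation was 0.10, 0.084 and 0.081. It was 0.25, 0.26 and 0.30 over CpG-rich starts and 0.51, 0.46 and 0.49 over the others.

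The ATAC-seq libraries of TKO followed TKO RNA more closely than mutant RNA. With the ATAC libraries of TKO, the rank correlation was 0.428 to 0.490 against the RNA libraries of TKO, 0.287 to 0.318 against those of TKO;Carm1 and 0.277 to 0.306 against those of TKO;NfibR388K. The ATAC libraries of TKO;Carm1 gave 0.356 to 0.432 against TKO RNA and 0.392 to 0.482 against their own RNA, which overlap. Those of TKO;NfibR388K gave 0.353 to 0.397 against TKO RNA and 0.427 to 0.491 against their own, which do not overlap. Against the RNA of the other mutant, the values were 0.431 to 0.468 for TKO;Carm1 and 0.382 to 0.483 for TKO;NfibR388K. Per same-numbered pair of libraries, the rank correlation was 0.486 ± 0.006 in TKO (SD, n = 3) and 0.470 ± 0.022 in the mutants (SD, n = 6), which an exact two-sided permutation test did not separate (p = 0.286, of a smallest possible 0.0119 over 84 arrangements).

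The share of counted ATAC reads that fell in start-site peaks was 40.6% ± 3.9 in TKO (SD, n = 3) and 39.8% ± 2.2 in the mutants (SD, n = 6), a difference of -0.758 percentage points (exact two-sided permutation test, p = 0.762). This share and its test include the peak paired with Gm10800, 1207 bp long with 22310 to 77240 CPM per kb. The values of that peak are uncertain, as described below. Without the peaks within 1000000 bp of Mycn the difference was -3.21 points (exact permutation test, p = 0.0238). Without TKO 3, whose share was 45.1% against 38.2 and 38.4% in TKO 1 and 2, it was 1.51 points (exact permutation test, p = 0.357). A permutation of 3 libraries against 3 cannot go below 0.10, so the 6 mutant libraries were pooled here. The median start-site peak had 12.2 CPM per kb in TKO and 9.33 in the mutants (p = 0.0119 by exact permutation, the smallest possible), but 9.35 against 10.7 with library totals as the only scaling (p = 0.119 by exact permutation). The higher plateau of TKO in CPM per kb thus rested on the scaling.

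Within a genotype, libraries of the same number moved together in both assays. For each gene of at least 1 CPM in the genotype the deviation of each library from the mean of its genotype was taken (log2 of CPM plus 0.5), in the peak and in the RNA. The same-numbered libraries correlated across 10870 to 11244 genes with Pearson's r of 0.53 to 0.68, and differently numbered ones with -0.46 to 0.07. Deviations of 3 libraries sum to 0, which pushes the other pairs below 0, and the values are a description of genes that share libraries. The study states that both assays used the same tumor biopsies, so these deviations compare tumors. At CpG-rich starts the same-numbered values were 0.52 to 0.68, and at other starts 0.54 to 0.70.

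**Figure D2:**
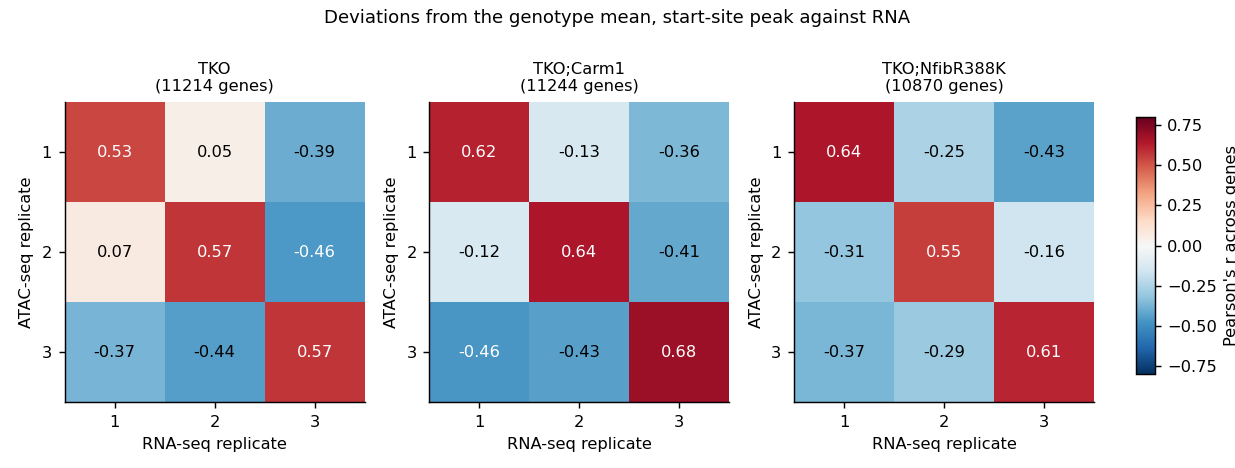
Pearson's r across genes between the deviation of the start-site peak (rows, ATAC-seq replicate) and the deviation of the RNA (columns, RNA-seq replicate) from the genotype mean, for each genotype. The diagonal, same-numbered libraries, holds 0.53 to 0.68, and the other cells -0.46 to 0.07.

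Between genotypes the question was whether a start site gained or lost accessibility when its gene gained or lost RNA. In TKO;Carm1 against TKO, 2691 start-site peaks were called higher (17.1% of 15777 tested, background over all peaks 38.7%) and 5564 lower (35.3%, background 32.4%). In TKO;NfibR388K against TKO, 2729 were higher (17.3%, background 39.3%) and 6372 lower (40.4%, background 34.0%). A peak was called where edgeR's quasi-likelihood test gave an adjusted p under 0.1 and the log2 fold change was 0.5 or more in either direction (0.8 for RNA). Start-site peaks changed less than other peaks, with a median absolute log2 fold change of 0.65 and 0.72 against 2.24 and 2.33.

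The balance of higher and lower calls depended on the scaling. The share of calls that were higher was 32.6% in TKO;Carm1 and 29.99% in TKO;NfibR388K with TMM, 67.6 and 61.7% with library totals, 55.3 and 54.6% with a scaling that sets start-site peaks of genes with steady RNA to no change, 48.6 and 48.1% with an offset for GC content, 24.3 and 23.9% with median-of-ratios factors and 24.9 and 24.6% with DESeq2. The median log2 fold change of start-site peaks was -0.34 and -0.40 with TMM and 0.24 and 0.17 with library totals. Directions of single peaks below are those of large changes, and each change is to be read against the median of -0.34 or -0.40.

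Of the paired genes, RNA of 2488 was higher and of 2088 lower in TKO;Carm1 (background over all genes 20.5 and 18.3%). In TKO;NfibR388K, 2752 were higher and 2744 lower (background 22.3 and 23.5%). The share called higher was 54.4 and 50.1%, and 39.5 and 35.9% with library totals. Between the mutants, edgeR's quasi-likelihood test called 0 peaks and 0 genes (backgrounds 0.0 and 0.0%). At an unadjusted p under 0.05 there were 783 of 15777 peaks and 1092 of 12347 genes, and DESeq2 called 110 and 280. Both comparisons with TKO share the TKO libraries, so their likeness is no separate result.

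Over 12346 genes tested in both assays, the rank correlation between the log2 fold change of the RNA and that of the start-site peak was 0.60 in TKO;Carm1 and 0.62 in TKO;NfibR388K. Where the RNA changed by -0.25 to 0.25 on the log2 scale, the median change of the peak was -0.37 and -0.43. That is near the median over all start-site peaks, and 32.1 and 40.2% of these peaks were called lower. Where the RNA was 0.8 to 2 higher on the log2 scale, the median change of the peak was -0.16 and -0.22. Where it was 4 and over, the median was 1.86 and 1.83, and 75.1 and 76.9% of the peaks were called higher. Where it was -4 and under, the median was -2.84 and -3.02, and 93.6 and 95.4% of the peaks were called lower.

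**Figure D3:**
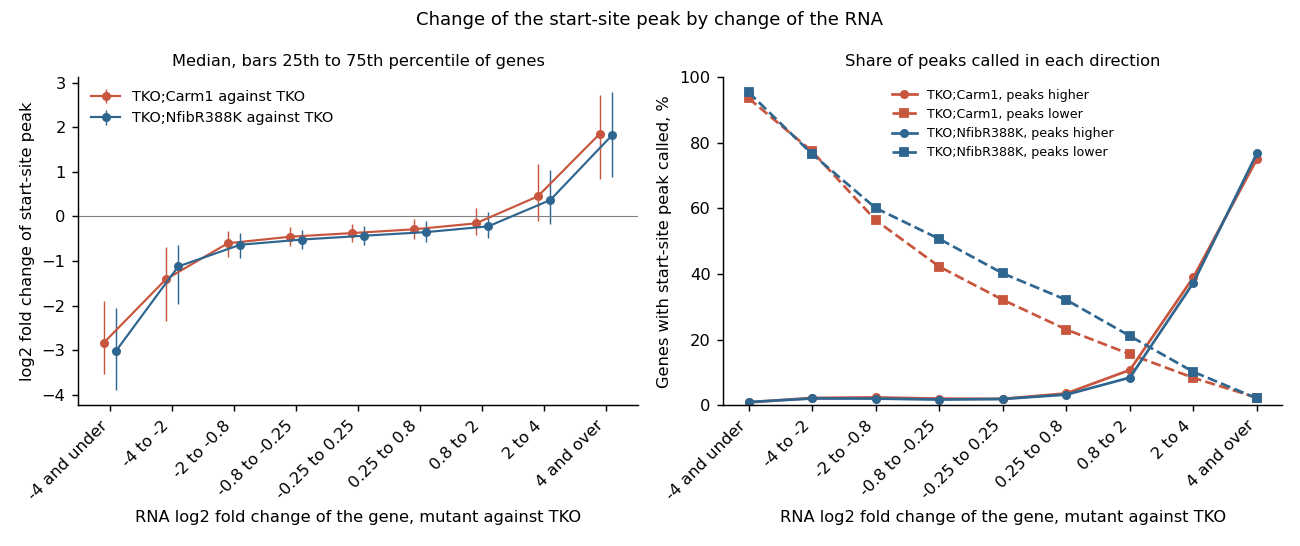
Left, median log2 fold change of the start-site peak (bars, 25th to 75th percentile of genes) by class of RNA log2 fold change, for both mutants against TKO. Right, percentage of genes in each class whose peak was called higher or lower, which reaches 75.1 and 76.9% higher in the top class and 93.6 and 95.4% lower in the bottom class.

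Counting calls, 37.8 and 36.3% of the genes with higher RNA had a peak called higher, 53.6 and 51.02% a peak not called, and 8.64 and 12.7% a peak called lower. Of the genes with lower RNA, 66.1 and 74.1% had a peak called lower and 1.87 and 1.75% a peak called higher. The unequal shares on the 2 sides move with the scaling of the ATAC counts described above. The rank correlation was higher over CpG-poor starts than over CpG-rich ones, at 0.68 and 0.71 against 0.54 and 0.56. At peaks with 2 or more gene starts it was 0.49 and 0.49, against 0.64 and 0.67 at a single start.

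Of 1202 pairs of genes at 1 peak, 454 and 456 had an RNA call for 1 member of the pair alone, and the peak was called with it in 137 and 155. In the other 317 and 301 pairs the shared peak was not called with that gene. Over all genes with an RNA call, 50.7 and 55.2% had a peak called in the same direction. At peaks with 1 gene start the share was 54.1 and 58.0%.

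In both mutants 834 genes were called higher in RNA and peak, and 1161 were called lower in both. Each mutant library lay beyond each TKO library in both assays for 736 of the former and 1052 of the latter. The genes were called on these same libraries and no count over all paired genes is given, so this is no separate support. The genes with the largest change of the peak among them, at 32 CPM or more on the higher side, were Ptgs2, Col3a1, Ifi204, Anxa1, Acta2 and Ptp4a2 on one side and Lrrn1, Myt1l, Epha5, Grin3a, Nyap2 and Ptgds on the other. The former include the prostaglandin synthase of inflammation, a fibrillar collagen, an interferon-inducible DNA sensor and smooth muscle actin. The latter include a neuronal zinc finger factor (Myt1l), an ephrin receptor and a glutamate receptor subunit.

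Ifi204 had 0.288, 0.0437 and 0 CPM of RNA in TKO, 140, 45.8 and 53.0 in TKO;Carm1 and 46.2, 75.6 and 82.3 in TKO;NfibR388K. Its peak had 1.04, 0.853 and 1.36 CPM per kb in TKO, 55.4, 54.1 and 43.9 in TKO;Carm1 and 39.4, 35.1 and 50.5 in TKO;NfibR388K. Neither set of TKO values overlapped with the mutants. The peak rose by 5.56 ± 0.23 and 5.27 ± 0.23 on the log2 scale (standard error, edgeR adjusted p = 2.7e-06 and 2.1e-06).

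Col3a1, which encodes the chain of type III collagen, had 0, 3.98 and 0.709 CPM of RNA in TKO and 1200 CPM or more in each mutant library. Its peak had 0.133, 0.0644 and 0.22 CPM per kb in TKO, 6.57, 5.73 and 6.51 in TKO;Carm1 and 5.77, 4.39 and 5.69 in TKO;NfibR388K. The start printed above carries no CpG, and the peak was closed in TKO and 41.5-fold higher over the mean of the mutants. It shares the peak with a second gene start.

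Epha5, a receptor tyrosine kinase of axon guidance, went the other way. Its RNA had 28.1, 58.6 and 32.4 CPM in TKO, 0 in each TKO;Carm1 library and 0.365, 0 and 0 in TKO;NfibR388K. Its peak had 12.2, 19.4 and 15.04 CPM per kb in TKO and 0.169 to 0.688 in the 6 mutant libraries. The peak fell by 4.87 ± 0.36 and 5.82 ± 0.38 on the log2 scale (edgeR adjusted p = 1.2e-05 and 6.5e-06), although the start is CpG-rich.

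Myt1l had 98.8, 98.7 and 98.95 CPM of RNA in TKO, 0, 0 and 12.3 in TKO;Carm1 and 0.304, 0 and 0 in TKO;NfibR388K. Its peak followed the same libraries, with 21.2, 24.0 and 13.4 CPM per kb in TKO, 0.297, 0.211 and 2.02 in TKO;Carm1 and 0.157 to 0.374 in TKO;NfibR388K. The library with RNA left, TKO;Carm1 3, was also the mutant library with the highest peak. Sox1, a neural transcription factor, showed the same order, with 17.5 CPM of RNA and 4.08 CPM per kb in TKO;Carm1 3 against at most 0.0608 CPM and 0.707 CPM per kb in the other 5 mutant libraries. Scg3, a secretory granule protein, had 71.8 CPM and 3.13 CPM per kb there, against at most 0.669 CPM and 0.562 CPM per kb.

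Among the genes the study names for these tumors, Lingo1, Sox1, Efnb3, Mycl, Nfib and Carm1 had a start-site peak and Ephb3, Foxa1 and Foxa2 had none by the rule. Carm1 itself had 97.7, 103 and 44.5 CPM of RNA in TKO, 63.4, 79.1 and 50.8 in TKO;Carm1 and 100, 104 and 102 in TKO;NfibR388K, which overlap. The counts run over the whole gene, so they do not show whether the floxed exons were gone. Its start-site peak had 28.1, 28.8 and 34.0 CPM per kb in TKO, 21.4, 26.1 and 28.3 in TKO;Carm1 and 17.7, 28.1 and 22.1 in TKO;NfibR388K and was called in neither mutant.

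Lingo1, a membrane protein of neurons, had 81.4, 88.8 and 59.4 CPM of RNA in TKO and 0 to 2.70 CPM in the mutants. Its peak had 11.8, 9.30 and 6.85 CPM per kb in TKO and 0.666 to 1.67 in the mutants, which do not overlap. Mycl, a MYC family oncogene, had 146, 14.7 and 7.18 CPM of RNA in TKO beside 45.2, 13.2 and 11.2 CPM per kb at its start, so that TKO 1 stood apart in both assays. Its RNA was 7.87 to 14.7 CPM in TKO;Carm1, which overlaps TKO, and 1.40 to 2.16 CPM in TKO;NfibR388K. Its peak had 7.78 to 10.03 CPM per kb in TKO;Carm1 and 6.18 to 7.17 in TKO;NfibR388K, below each TKO library, and was called lower at log2 fold changes of -1.39 and -1.78 (edgeR adjusted p = 0.015 and 0.0044). Without TKO 1 these were -0.47, no longer called, and -0.85, and in TKO;Carm1 the call was also lost with library totals and with a GC offset.

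Nfib, the gene of the transcription factor that CARM1 methylates, had peaks at more than 1 annotated start. Its RNA had 420, 580 and 571 CPM in TKO, and the peak at the record's start had 2.10, 9.40 and 1.29 CPM per kb, so that TKO 2 stood apart. In the mutants the RNA was 74.5 to 216 CPM and that peak had 0.0654 to 0.587 CPM per kb, called lower at log2 fold changes of -3.6 and -3.72 (edgeR adjusted p = 0.0063 and 0.0052), or -2.27 and -2.39 without TKO 2. Another annotated transcript start of Nfib, 199357 bp downstream, carried 15.2, 15.4 and 22.8 CPM per kb in TKO and 7.82 to 12.9 in the mutants. Which start gave the RNA was not measured. Of 8228 genes expressed in all 9 libraries on these chromosomes, 90.7% had a peak at the gene start and 97.8% at some annotated transcript start.

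Ptp4a2, a phosphatase gene, was called higher in both assays with unlike sizes. Its RNA had 185, 199 and 222 CPM in TKO and 316 to 496 CPM in the mutants, 1.91-fold higher on average. Its peak had 0.381, 0.323 and 0.347 CPM per kb in TKO and 7.28 to 16.1 in the mutants, 31.7-fold higher. The other start 8759 bp downstream had 9.14 to 11.4 CPM per kb in TKO and 9.71 to 14.9 in the mutants.

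Some genes were called in opposite directions. In both mutants 153 genes had higher RNA with a lower peak and 28 lower RNA with a higher peak, or 110 and 24 without another gene start at the peak. Those named by the rule were Pygl, Sorbs3, Synpo and Hsd11b1 with higher RNA and Nr1h5, Gm12609, Agap2 and Mllt11 with lower RNA. A peak at another annotated transcript start was called in the direction of the RNA for 25.5 and 25% of these 110 and 24 genes. The share was 14.99 and 15.5% of the 707 and 839 genes called in the same direction in both assays at a peak without another gene start. A peak at another start, called or not, was more often present at the genes of opposite directions (38.2 and 37.5% against 26.2 and 25.6%). Where it was present, it was called in the RNA direction for 28 of 42 and 6 of 9, against 106 of 185 and 130 of 215. Whether other starts account for the opposite calls was not tested.

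Pygl, the liver form of glycogen phosphorylase, had 2.98, 0.744 and 0.576 CPM of RNA in TKO and 7.27 to 46.4 CPM in the mutants. Its peak had 7.17, 17.6 and 2.06 CPM per kb in TKO and 0.235 to 0.639 in the mutants. The peak 3805 bp downstream, at another start, had 2.18 to 3.71 CPM per kb in TKO and 3.44 to 5.97 in the mutants.

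Mllt11 had 115, 103 and 128 CPM of RNA in TKO and 14.9 to 41.5 CPM in the mutants. Its paired peak, with a middle 660 bp before the start, had 0.626 to 0.969 CPM per kb in TKO and 3.89 to 8.05 in the mutants. The peak 2800 bp downstream, at another start, had 12.95 to 14.8 CPM per kb in TKO and 6.003 to 9.03 in the mutants. Agap2 had a like second start, with 8.17 to 10.4 CPM per kb in TKO and 1.27 to 2.16 in the mutants at a start 3628 bp downstream. With an offset for GC content the paired peak of Agap2 changed by -0.62 and -0.36 in place of 2.24 and 2.50 on the log2 scale.

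**Figure D4:**
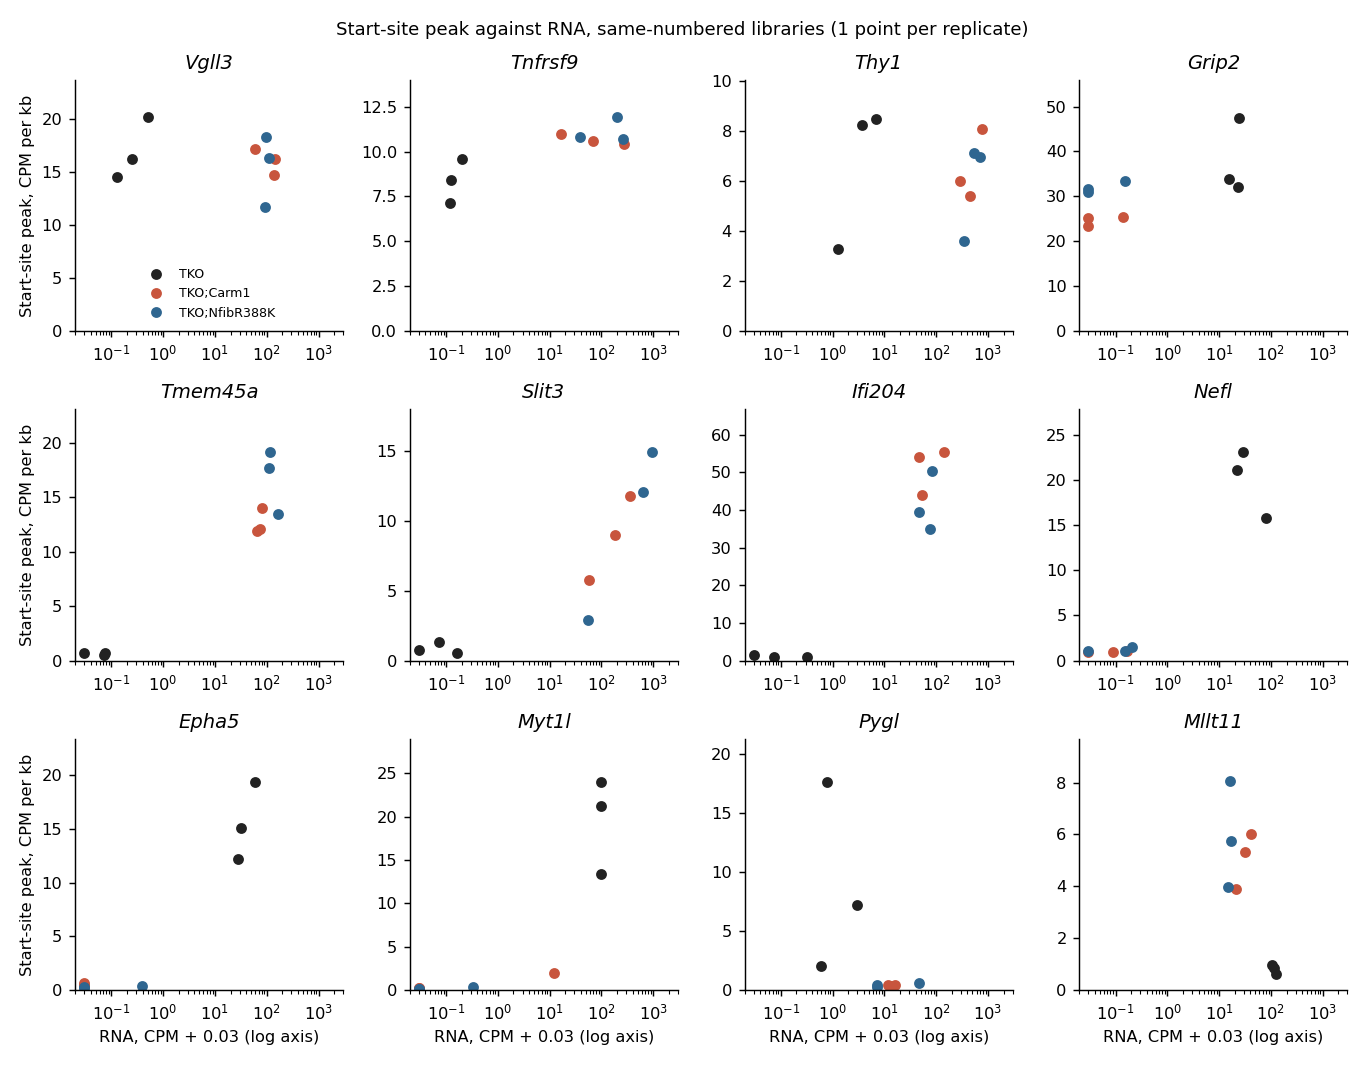
Start-site peak (CPM per kb) against RNA (CPM plus 0.03, log axis) in the 9 same-numbered pairs of libraries for 12 genes. The paired peak of Vgll3, Tnfrsf9, Thy1 and Grip2 is kept over a change of RNA, though the start of Park7 shares that of Tnfrsf9. Tmem45a, Slit3, Ifi204, Nefl, Epha5 and Myt1l lose or gain both, and Pygl and Mllt11 move in opposite directions.

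Start sites that stayed open over silent genes were counted in each genotype. In TKO, 3172 paired genes were silent, of which 1080 (34.1%) had an open peak and 415 (13.1%) a closed one. In TKO;Carm1 the numbers were 3584, 1232 (34.4%) and 289 (8.06%), and in TKO;NfibR388K 3927, 1246 (31.7%) and 480 (12.2%). Of expressed genes 94.2, 92.2 and 92.2% had an open peak. All these shares, and those below, are over paired genes. Silent genes without a start-site peak are not counted, and 89.7% of CpG-rich starts and 24.0% of the others had one.

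CpG-rich starts of silent genes were open in 66.8% of cases in TKO, 60.3% in TKO;Carm1 and 52.9% in TKO;NfibR388K, and other starts in 22.2, 23.0 and 21.5%. Among the closed starts of silent genes, CpG-rich ones made up 3.86% in TKO, 13.2% in TKO;Carm1 and 21.9% in TKO;NfibR388K. The sets of silent genes differ between genotypes, so these shares are not over the same genes. The thresholds for open and closed are also fixed on the TMM scale. On it the median start-site peak had 12.2 CPM per kb in TKO and 9.33 in the mutants, against 9.35 and 10.7 with library totals. The differences between genotypes in these shares thus depend on the scaling.

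**Figure D5:**
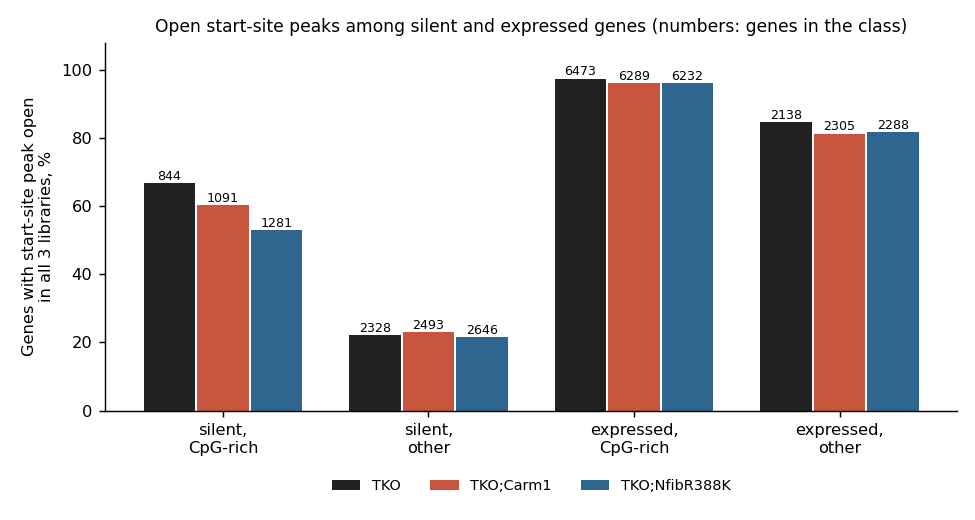
Percentage of paired genes with a start-site peak open in all 3 libraries of a genotype, by silent or expressed gene and CpG-rich or other start. The number of paired genes in each class stands above its bar. Silent genes with CpG-rich starts stand at 52.9 to 66.8%, silent genes with other starts at 21.5 to 23.0%, and expressed genes at 81.3 to 97.4%.

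Over all 9 libraries of both assays, 2434 paired genes were silent and 678 of them (27.9%) had a peak open throughout. A peak closed in all 9 was found for 0 of them, as the set of peaks by its making holds places accessible in some library. Of the silent genes 64.0% with a CpG-rich start and 14.5% with another start were open, and 59.2% with another gene start at the peak against 10.8% without.

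Most of the 678 were small RNA genes or could not be told apart from another gene. Small RNA genes made up 258. At least 50% of the 31-base words of 173 further genes also stood in transcripts of another gene, where a read that matches both genes cannot be assigned. Another 140 lay at a peak that also held the start of a gene expressed in all 9 libraries, 22 started inside such a gene, and 47 lay by the start of some other gene. That left 38 genes, of which 13 code for proteins.

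By the rule for open and silent coding genes, the highest peaks belonged to Gm10800, Gm10801, Zfp969 and members of the interferon zeta cluster (Ifnz, Gm13272, Gm13278, Gm13279, Gm13287, Gm13288 and Gm13289). Gm10800 had 22310 to 77240 CPM per kb with at most 2 RNA counts. Zfp969 had 89.2 to 142 CPM per kb and these interferon zeta members 88.0 to 281 CPM per kb. Of the 31-base words of their transcripts, 42.0 and 36.2% (Gm10800 and Gm10801), 100% (Zfp969) and 52.8 to 100% (the interferon zeta members) stood in transcripts of another gene. Reads from near-identical copies cannot be told apart, so the values of these genes are uncertain in both assays.

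The 13 include Gm10800 and Gm10801, and the genes that follow were chosen from them after their values were seen. Ctnna3, which encodes alpha-T-catenin of heart muscle junctions, had at most 3 RNA counts in any library. Its peak had 18.7, 15.2 and 22.7 CPM per kb in TKO, 11.5, 15.3 and 12.8 in TKO;Carm1 and 10.8, 12.7 and 12.2 in TKO;NfibR388K, beside medians over expressed genes of 15.95, 12.03 and 11.63 CPM per kb. Its 250 bases printed above hold 36 CpG, the most of the 5 shown. Zpbp2, a sperm protein gene, had 7.76 to 12.5 CPM per kb with at most 2 RNA counts, and the theta globin genes Hbq1a and Hbq1b had 5.26 to 9.83 and 5.63 to 9.40 CPM per kb with at most 3 and 0. The theta globin pair shares 44.95 and 35.7% of its words with other transcripts, Ctnna3 1.04% and Zpbp2 0%.

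Genes silent in all 9 libraries could still change at the start. Their peak was called higher in 26.8% and lower in 33.4% in TKO;Carm1 and in 27.5 and 36.2% in TKO;NfibR388K. Over all start-site peaks tested, 17.1 and 17.3% were higher and 35.3 and 40.4% lower, so lower calls were no more frequent at silent genes. The balance of higher and lower calls also depended on the scaling, as described above. Among genes expressed in all 9 libraries, the peak was higher in 2.99 and 3.003% and lower in 33.1 and 41.3%. The peak was closed in TKO and open in the 6 mutant libraries at 29 silent genes and the reverse at 30. Of the 29, 7 were lincRNA genes, 6 processed pseudogenes and 2 coding genes (Gm10974 and Gm17268), and 27 had a CpG-poor start. A CpG-poor start was as common among the reverse cases (26 of 30) and was held by 1778 of the 2434 silent genes. Those 2434 included 356 lincRNA genes, 217 processed pseudogenes and 431 coding genes.

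Dazl, a germ cell RNA-binding protein gene that somatic cells silence by DNA methylation, had 0 RNA counts in every library. Its peak had 1.33, 0.97 and 0.695 CPM per kb in TKO, 10.47, 8.64 and 6.94 in TKO;Carm1 and 1.97, 1.08 and 1.17 in TKO;NfibR388K. It rose by 3.10 ± 0.47 on the log2 scale in TKO;Carm1 (edgeR adjusted p = 0.00039) and was not called in TKO;NfibR388K. The difference between the mutants was not called (edgeR adjusted p = 0.23).

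Genes that switched between silent and expressed mostly changed at the start as well. Of 20 genes silent in TKO and expressed in all 6 mutant libraries, the peak of 19 was called higher in both mutants. The exception was Bdkrb1, a bradykinin receptor gene, whose peak had 15.6, 14.6 and 4.75 CPM per kb in TKO and 6.84 to 13.7 in the mutants and was called in neither, though without TKO 3 it was called lower in TKO;NfibR388K at -0.76. By the thresholds, 0 of the 20 were open in TKO, where Bdkrb1 missed the level in TKO 3 alone, 7 were closed there, and 7 were open in all 6 mutant libraries. The median start-site peak of these genes had 0.777 CPM per kb in TKO and 7.13 in the mutants. Of 9 genes expressed in TKO and silent in the mutants, the peak of 7 was called lower in both and 1 kept an open peak, and the medians were 15.4 in TKO and 1.45 in the mutants. With silent set at under 1 CPM, 3 of 119 and 1 of 47 kept an open peak. These counts stand beside 17.1 and 17.3% of all start-site peaks tested called higher and 35.3 and 40.4% called lower in TKO;Carm1 and TKO;NfibR388K. Among all genes with RNA 4 and over on the log2 scale, 75.1 and 76.9% of peaks were higher. Among those at -4 and under, 93.6 and 95.4% were lower.

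Tmem45a, a transmembrane protein gene, went from closed and silent to open and expressed. Its RNA had 0, 0.0437 and 0.0443 CPM in TKO, 80.3, 64.0 and 75.3 in TKO;Carm1 and 163, 114 and 110 in TKO;NfibR388K. Its peak had 0.702, 0.468 and 0.669 CPM per kb in TKO, 14.1, 11.9 and 12.1 in TKO;Carm1 and 13.4, 19.2 and 17.7 in TKO;NfibR388K. The RNA was at least 743-fold higher in the mutants, against 3 counts in TKO, and the peak 24.0-fold. An antisense gene starts at the same peak.

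Other switching genes rose in both assays, though they were chosen after their values were seen. Slit3, a guidance ligand, had at most 0.131 CPM of RNA and 0.564 to 1.30 CPM per kb in TKO, and 55.9 to 933 CPM with 2.93 to 14.9 CPM per kb in the mutants. The 2 mutant libraries with the least RNA, TKO;Carm1 3 and TKO;NfibR388K 3, had the lowest peaks. Steap4, Ly6a, Twist2 and Emx2 rose in both assays, with peaks 17.6-fold, 14.5-fold, 8.97-fold and 12.04-fold higher than in TKO. Steap4 and Emx2 share the peak with another gene start.

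Nefl, also chosen after its values were seen, encodes the light chain of neurofilaments. Its RNA had 28.8, 22.1 and 78.9 CPM of RNA in TKO and 0 to 0.182 CPM in the mutants. Its peak had 23.1, 21.1 and 15.7 CPM per kb in TKO and 0.979 to 1.48 in the mutants, 18.3-fold lower. The CpG-rich start printed above thus had almost no accessibility where the gene was silent. Nrxn3, Rims1 and Sp9, genes of synapses and of neural fate, fell in the same way, with peaks 39.9-fold, 10.7-fold and 9.29-fold lower.

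Grip2, a scaffold of glutamate receptors, was the gene of the 9 that kept an open peak. Its RNA had 23.6, 15.3 and 24.5 CPM in TKO, 0, 0 and 0.112 in TKO;Carm1 and 0, 0.123 and 0 in TKO;NfibR388K. Its peak had 32.1, 33.8 and 47.5 CPM per kb in TKO, 23.4, 25.2 and 25.4 in TKO;Carm1 and 31.6, 33.5 and 30.9 in TKO;NfibR388K. It changed by -0.61 ± 0.34 and -0.24 ± 0.34 on the log2 scale (edgeR adjusted p = 0.13 and 0.55), and DESeq2 called it lower in TKO;Carm1 at -0.78. The peak is 138 bp long and its middle lies 162 bp downstream of the start.

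In the other direction, genes at under 1 CPM in TKO with an open start were Vgll3, Tnfrsf9 and Tcaf2, chosen for their count after the values were seen. Vgll3, a cofactor of TEAD transcription factors, had 0.0961, 0.481 and 0.222 CPM of RNA in TKO, 139, 58.9 and 143 in TKO;Carm1 and 93.0, 112 and 97.5 in TKO;NfibR388K. Its peak had 14.5, 20.2 and 16.3 CPM per kb in TKO, 14.7, 17.2 and 16.2 in TKO;Carm1 and 11.7, 16.3 and 18.3 in TKO;NfibR388K. The groups overlap in the peak and lie far apart in the RNA. A second transcript start 13702 bp downstream had 0.206 to 0.313 CPM per kb in TKO and 2.47 to 6.36 in the mutants.

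Tnfrsf9, a costimulatory receptor of the tumor necrosis factor family, had 0.0886 to 0.175 CPM of RNA in TKO and 16.6 to 272 CPM in the mutants. Its peak had 8.43, 9.59 and 7.12 CPM per kb in TKO and 10.4 to 11.9 in the mutants and was not called, but it was called higher with library totals (0.944 and 0.998) and with the scaling on genes of steady RNA (0.72 and 0.85). The start of Park7, a gene at 82.8 to 90.2 CPM in TKO and 117 to 156 CPM in the mutants, lies at the same peak, so its accessibility cannot be assigned to Tnfrsf9. A start of Tnfrsf9 13214 bp downstream had 1.09 to 1.44 CPM per kb in TKO and 5.05 to 10.4 in the mutants. Thy1, a marker of fibroblasts, had 3.75, 1.23 and 6.96 CPM of RNA in TKO and 287 to 762 CPM in the mutants over a peak of 3.28 to 8.47 and 3.59 to 8.05 CPM per kb. Another start of Thy1, 1280 bp downstream, had 0.176 to 1.70 CPM per kb in TKO and 1.90 to 5.62 in the mutants. The peak there was called higher at log2 fold changes of 1.92 and 1.49 (edgeR adjusted p = 0.039 and 0.091).

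Counts over lists of cell type markers and gene families follow, first for TKO;Carm1 and then for TKO;NfibR388K. They are to be read against all start-site peaks tested, of which 17.1 and 17.3% were higher and 35.3 and 40.4% lower, and all genes tested, of which 20.5 and 22.3% were higher and 18.3 and 23.5% lower in RNA. Of 13 neuroendocrine markers with a start-site peak, the peak was lower in 12 and 13, and the RNA in 3 and 12. The median log2 fold change of these peaks was -3.0 and -3.88, against -0.34 and -0.40 over all start-site peaks. Without TKO;Carm1 3 both the peak and the RNA were lower in 13 and 13. Of the 15 markers Neurod1 had 0 counts in all mutant libraries, and 0, 1 and 3 markers were at or under 3 counts in TKO, TKO;Carm1 and TKO;NfibR388K. Neurod1, a neural factor, had 6.06, 19.1 and 5.63 CPM per kb in TKO and 0.215 to 0.689 in the mutants at a peak that also holds the start of Cerkl.

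Of 14 fibroblast and mesenchyme genes, RNA was higher in 13 and 13 and the peak in 12 and 10, with a median log2 fold change of the peak of 2.34 and 1.98. The summed RNA of the 16 markers was 164 to 348 CPM in TKO, 22340 to 32490 in TKO;Carm1 and 17730 to 21880 in TKO;NfibR388K, with Twist2 at or under 3 counts in all TKO libraries and no marker so in the mutants. The 12 leukocyte markers summed to 12.9 to 82.3 CPM in TKO, 273 to 3084 in TKO;Carm1 and 82.9 to 1220 in TKO;NfibR388K, and both paired members, Cd14 and Csf1r, rose in RNA and peak, while Cd3e had 0 counts throughout. The 8 endothelial markers summed to 4.45 to 19.8 CPM over all groups, with Emcn and Cldn5 at 0 counts in every library, 1 and 1 of 4 paired peaks higher, 1 and 0 lower, and the RNA of the 3 tested higher in 0 and 0 and lower in 0 and 1. The part of these cell types in the start-site changes was not tested.

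Lung epithelial markers had 10 start-site peaks, of which 1 and 1 were higher and 4 and 5 lower, beside RNA higher in 0 and 4 and lower in 1 and 1. With library totals 2 and 2 were higher and 1 and 2 lower, and with a GC offset 3 and 2 higher and 1 and 2 lower, so the excess of lower peaks rested on the scaling. Without TKO;Carm1 3, 0 were higher and 6 lower in TKO;Carm1. Their 15 markers summed to 383 to 818 CPM in TKO, 6.92 to 1304 in TKO;Carm1 and 5.08 to 3529 in TKO;NfibR388K. Of 6 immediate early genes the RNA was higher in 3 and 5 and the peak in 2 and 2, or in 1 to 4 under the other scalings. Ier3 had 4.75 to 5.11 CPM per kb in TKO and 9.003 to 13.3 in the mutants, while Jun had 23.1 to 27.7 and 17.7 to 27.6 CPM per kb, which overlap.

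Ribosomal protein genes, expressed at 5674 to 22050 CPM in sum, kept open peaks. All 20 had a start-site peak, and 18 were open in all 9 libraries. Their RNA was higher in 2 and 4 and lower in 0 and 0, while the peak was higher in 0 and 1 and lower in 7 and 10 with TMM and higher in 2 and 1 and lower in 0 and 0 with library totals, so the direction of their peaks rested on the scaling. The same held for 53 replication histone genes, whose peaks were lower in 30 and 14 with TMM, in 1 and 2 with library totals and in 44 and 43 with an offset for GC content. The RNA of the 15 histone genes tested was lower in 3 and 3. Of the 53 genes 49 had a peak open in all 9 libraries, and most of these genes have transcripts without poly(A) tails that many RNA libraries miss.

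Of 64 homeobox, paired, GATA and T-box regulators, which Polycomb represses in many tissues, 46 had a start-site peak. The peak was higher in 7 and 12 (15.2 and 26.1%) and lower in 16 and 18 (34.8 and 39.1%), the latter near the 35.3 and 40.4% of all start-site peaks. With library totals it was higher in 14 and 17 and lower in 12 and 12, with a GC offset higher in 14 and 20 and lower in 11 and 9, and the RNA of the 30 tested was higher in 6 and 8 and lower in 7 and 7. Tbx5 had at most 0.175 CPM of RNA and 0.593 to 0.727 CPM per kb in TKO, and 10.4 to 35.1 CPM with 7.46 to 11.9 CPM per kb in the mutants. Of the 46, 7 had a peak open in all 9 libraries, and 2 were silent in all 9.

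Germline genes had 4 start-site peaks of 20 listed, with the peak higher in 1 and 0 and lower in 1 and 2 and the RNA of the 2 tested higher in 1 and 0 and lower in 1 and 1. Tex14 was open in all 9 libraries, at 8.27 to 11.4 CPM per kb with at most 0.899 CPM of RNA, at a peak shared with the start of Rad51c, which had 9.49 to 28.2 CPM. Olfactory and vomeronasal receptors had 11 and 10 peaks of 1162 and 495 genes. Peaks were higher in 6 and 7 and lower in 2 and 2 of the former and higher in 5 and 8 and lower in 1 and 1 of the latter. With a GC offset the olfactory receptor peaks were higher in 3 and 4 and lower in 3 and 2, with a median log2 fold change of 0.53 and 1.05 in place of 2.65 and 2.998, while the vomeronasal ones were higher in 7 and 8 and lower in 0 and 0. Of these genes 10 and 7 were silent in all 9 libraries. Olfr433 had 0 to 0.231 CPM per kb in TKO and 3.06 to 7.38 in the mutants with no RNA count in any library.

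Sequence features of the starts were compared as shares, with each motif searched on both strands of the 300 bases around the start. TGANTCA, the letters of the AP-1 site, stood in 12.6% of the 834 starts higher in both assays, 3.45% of the 1161 lower ones, 5.83% of all paired starts and 7.95% of all gene starts. TATAAA stood in 11.4, 6.46, 7.95 and 17.2% of the same sets. CpG-rich starts made up 28.8% of the higher and 66.6% of the lower set. CAGCTG, an E-box, stood in 18.2 and 15.3%, and TTGGCA, an arm of the NFI palindrome, in 13.1 and 10.6%, against 15.6 and 11.9% of all paired starts. The whole NFI palindrome stood in 4 of 16801 paired starts. A match says only that the letters are there.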

How the data were processed

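RNA-seq and ATAC-seq of the same 3 tumors per genotype were used. The authors deposited unnormalized counts: reads per Ensembl gene, which they mapped to mm10 with HISAT2 and counted with htseq-count, and reads per peak of 1 merged peak set, counted with featureCounts 1.6.3 per the file headers after Bowtie2 mapping, removal of duplicates and MACS2. Rows that name no gene were left out: no feature held 3.65 to 12.2% of reads, ambiguous reads 3.84 to 4.50% and reads without a unique alignment 3.18 to 6.31%. The strand setting is not given in the sources used here, so overlapping and antisense genes are uncertain.

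Gene starts came from GENCODE M21 on GRCm38, which held 45143 of the 46078 genes. Each gene was paired with the nearest peak within 1000 bp. Counts of all 9 libraries of an assay were fitted in 1 model with edgeR 4.0.16 (TMM, filterByExpr, robust quasi-likelihood F test) in R 4.3.3 and adjusted by Benjamini-Hochberg over all 111116 peaks or 15514 genes tested. The thresholds were an adjusted p of 0.1 together with a log2 fold change of 0.5 (peaks) or 0.8 (genes) in either direction. The fits were tested on simulated data. Pairing, levels and exact tests used scipy 1.17.1, pandas 2.3.3 and numpy 2.4.6, and plots matplotlib 3.10.9, under Python 3.11.15.

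Genes were named by rule: genes the study names, the 6 concordant genes per direction with the largest change of the peak, genes open while silent, genes called in opposite directions, switching genes and, in each marker list (neuroendocrine, fibroblast, lung epithelium, leukocyte, endothelium, ribosomal, immediate early, developmental, germline, olfactory, vomeronasal, histone), those with the largest and smallest change. Members, lists and rules were chosen with earlier results of these data known. Alternatives were DESeq2 1.42.0, other scalings, filters, windows, thresholds, a GC offset, a replicate block and each library left out. Library numbers did not pair genotypes: deviations of same-numbered libraries between genotypes correlated at -0.27 to 0.12.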

Additional observations from a re-analysis of the deposited data

How the results depend on the processing

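The counts of peaks and genes called against TKO stayed within 1.5 times their value under every alternative run, while the number of genes called in opposite directions (254 in TKO;Carm1 and 398 in TKO;NfibR388K) moved further. It was 455 and 619 with DESeq2, 451 and 625 with median-of-ratios factors, 245 in TKO;NfibR388K with library totals, 119 and 161 with scaling on steady genes, 122 and 153 with at least 10 counts in every library and 164 and 200 with a GC offset. With at least 10 counts, 1214 and 1469 genes were called in the same direction, since fewer genes were tested. Between the mutants, DESeq2 called 110 peaks and 280 genes and the minimum of 10 counts 1 peak and 4 genes. The rank correlation of fold changes was 0.553 and 0.585 with DESeq2, 0.483 and 0.488 with at least 10 counts, 0.550 and 0.584 without a filter and 0.638 and 0.671 without another gene start at the peak. In TKO;NfibR388K it was 0.601 with a GC offset, 0.613 with only the genotypes compared, 0.611 with any transcript start, 0.602 with 500 bp and 0.636 over coding genes.

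The rank correlation of levels was 0.601, 0.563 and 0.586 without another gene start, 0.465 (TKO) and 0.444 (TKO;NfibR388K) with any transcript start, and in TKO 0.463 with 500 bp and 0.464 over coding genes. The difference in read share was 0.091 points with 500 bp (exact permutation p = 0.952) and -3.21 without peaks near Mycn. Silent genes with an open peak (678) numbered 171 without another gene start, 133 over coding genes, 378 with open at 10 CPM per kb and 1265 with silent under 1 CPM. In an alternative chosen after seeing the data they numbered 85. It left out small RNA genes, genes of shared words and genes at or inside a gene expressed in all 9 libraries. It kept the 47 by the start of some other gene, which are not among the 38 given above. Genes open before switching on numbered 1 with open at 2 CPM per kb, with 5 CPM per peak or with expressed at 1 CPM, and 3 with silent under 1 CPM. Genes open after switching off numbered 2 with open at 2 CPM per kb and 0 with silent under 0.1 CPM. The cause was not tested.

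With each library left out in turn, peaks called ranged over 6873 to 8458 in TKO;Carm1, 8025 to 9397 in TKO;NfibR388K and 0 to 6 between them, genes over 3611 to 4978, 4732 to 5641 and 0 to 0, same directions over 1657 to 2660 and 2536 to 3104, opposite ones over 127 (without TKO;Carm1 1) to 322 and 274 to 463, the rank correlation of changes over 0.583 to 0.626 and 0.620 to 0.632, the rank correlation of levels over 0.479 to 0.485, 0.434 to 0.474 and 0.460 to 0.479, the share difference over -1.96 to 1.51, silent open genes over 687 to 741, and genes open before switching on over 0 to 1.

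The library numbers share only a number. With them as a replicate block, 8048 and 8921 peaks and 4235 and 5089 genes were called, 229 and 363 in opposite directions, and the rank correlation was 0.618 and 0.630. With the block and a GC offset, 128 and 177 were opposite and the rank correlation was 0.607 in TKO;NfibR388K.

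Over 85 named genes, 4961 values kept their side of the threshold, 127 lost a call, 69 gained one and 9, called before or after the change, turned direction. Those that kept their side include 143 uncalled values whose sign changed. The 9 were the peak of Agap2 with a GC offset (-0.62 and -0.36) and with block and offset (-0.38 and -0.49), the RNA of Calca and Epcam in TKO;Carm1 without TKO;Carm1 3 (-6.06 and -10.13, against up to 5.07 and 2.71 with other libraries left out), and with library totals the peaks of Tex14 (0.54), Zfp969 (0.54) and Vgll3 (0.51). Depth limits silence to 3 counts, or 0.143 to 0.189 CPM.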
